A study of Mus musculus with 2 samples.

Results

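Unpigmented *Gja1* cells were examined in single-cell RNA-seq (scRNA-seq) libraries of mouse eyecups at E13.5. The cells were chosen by measured counts of unique molecular identifiers (UMIs), each of which stands for 1 captured transcript. A cell belonged to the group if it had at least 3 *Gja1* UMIs, fewer than 4 UMIs of the pigment genes *Pmel*, *Dct*, *Trpm1* and *Tyrp1* together, fewer than 2 of *Fabp7* and fewer than 3 of *Atoh7*. Cells had to have more than 200 and fewer than 6000 genes, a mitochondrial share of at least 1% and under 20%, less than 20% hemoglobin UMIs and less than 1% *Cryaa* and *Cryab* UMIs. Of 22987 cells, 17458 passed these limits on the cell, and 761 of them were unpigmented *Gja1* cells. The control library came from an embryo that was heterozygous for a *Six3* null allele and for a *Six6* null allele (Six3+/-;Six6+/-). The DKO library came from a littermate that was homozygous for the floxed *Six3* allele and for the *Six6* null allele and carried a-Cre (Six3F/F;Six6-/-;a-Cre), and this embryo was picked by GFP-positive rosettes in its retinas. Both genotypes therefore lacked at least 1 functional copy of *Six6*. The Cre acts in the peripheral retina and not in the center, so the DKO eyecups held cells that had lost *Six3* and cells that kept it. With 1 library for each genotype, library and genotype cannot be told apart, and no test was made. All intervals below are 95% intervals for counting error only, and they do not hold the variation between embryos or dissections.

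The ciliary margin is the rim of the optic cup, where the neural retina meets the retinal pigment epithelium, and it later gives rise to the epithelia of the ciliary body and the iris. Wnt signaling promotes margin identity at the expense of neural retina, and *Six3* is known as a repressor of Wnt genes in the anterior neural plate and eye. *Gja1* encodes connexin 43, a gap junction channel that couples the layers of the ciliary epithelium. *Otx1* encodes a homeodomain factor required for ciliary body formation, *Col9a1* encodes a chain of the matrix protein collagen IX, and *Rbms1* encodes an RNA-binding protein. These 4 genes were the markers of the cell type. They lie in the mm10 annotation on chromosome 10 from 56377330 to 56402513 (*Gja1*), chromosome 11 from 21994764 to 22002897 (*Otx1*), chromosome 1 from 24177610 to 24252684 (*Col9a1*) and chromosome 2 from 60750193 to 60963192 (*Rbms1*).

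The kept cells had medians of 7923 UMIs in the control and 6137 in the DKO library, and the unpigmented *Gja1* cells were deeper, with medians of 13425 and 8311 UMIs. The libraries shared 22 cell barcodes, of which 0 belonged to the selected cells. In red blood cells, which should not make connexin 43, 3 of 1445 control cells (0.208%, 0.0428% to 0.606%) and 11 of 1001 DKO cells (1.10%, 0.550% to 1.96%) reached 3 *Gja1* UMIs, at medians of 8110 and 5881 UMIs per cell. Lens cells reached it in 1.79% and 7.40%.

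Unpigmented *Gja1* cells made up a larger share of the DKO library at the given limits. There were 251 of 7331 kept cells in the control (3.42%, 3.02% to 3.87%) and 510 of 10127 in the DKO library (5.04%, 4.62% to 5.48%), a ratio of 1.47 (1.26 to 1.72). The share depended on the limits and on depth. After every kept cell was thinned to 4000 UMIs and the same limits were applied, 61 of 6633 control cells (0.920%, 0.704% to 1.18%) and 394 of 8217 DKO cells (4.79%, 4.34% to 5.28%) were selected, and the ratio was 5.21 (3.97 to 6.95). If no pigment UMI was allowed, the shares were 1.92% and 2.005%, with a ratio of 1.04 (0.837 to 1.30) that includes 1. Pigmented *Gja1* cells, with at least 4 pigment UMIs and the other limits the same, numbered 542 in the DKO library (5.35%, 4.92% to 5.81%) against 72 in the control (0.982%, 0.769% to 1.24%). Of all kept cells with at least 3 *Gja1* UMIs, 72.1% in the control and 43.5% in the DKO library were unpigmented *Gja1* cells.

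**Figure D1:**
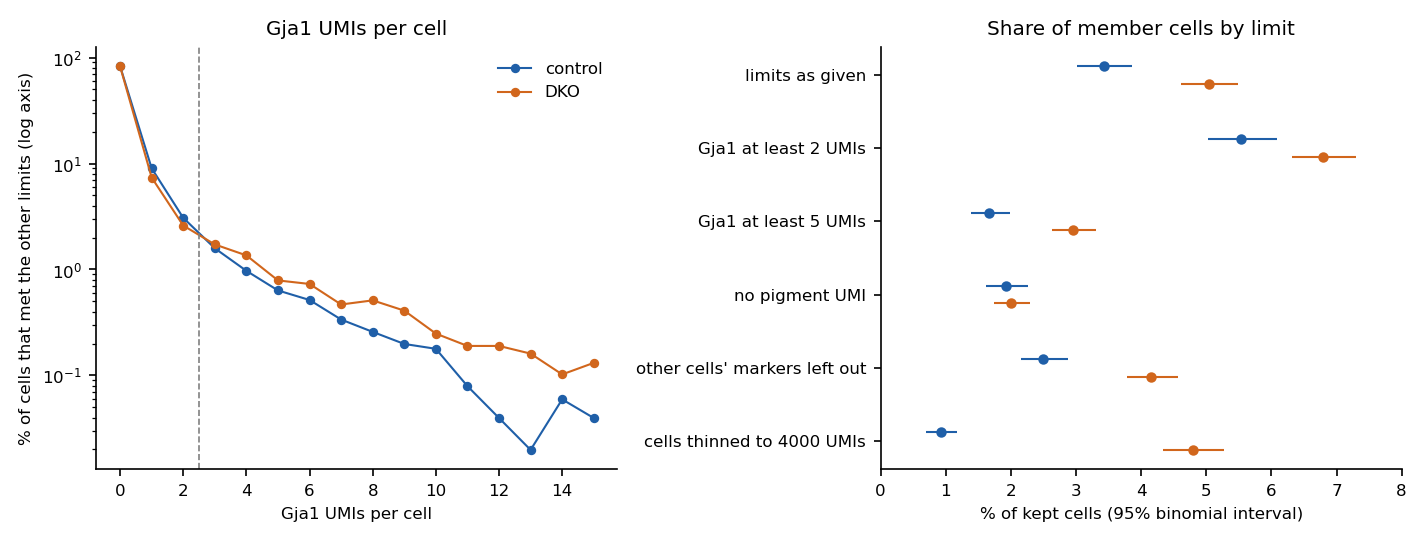
Left, percentage of cells (log axis) by *Gja1* UMIs per cell among cells that met all other limits, with the limit of 3 UMIs dashed; right, percentage of kept cells selected under the given and 5 other limits, with 95% binomial intervals, control in blue and DKO in orange. The control and DKO points nearly coincide at 1.92% and 2.005% without pigment UMIs and are furthest apart, at 0.920% and 4.79%, after thinning to 4000 UMIs.

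The distribution of *Gja1* had no gap at the limit. Just outside it, 155 control and 178 DKO cells had 2 UMIs and a *Col9a1* level of 306 and 219 CPM (a gene's summed UMIs in the group, divided by all UMIs of the group and scaled to 1000000). Just inside it, 80 control and 118 DKO cells had 3 UMIs and a *Col9a1* level of 385 and 322 CPM. At the pigment limit, the 18 control and 56 DKO cells with 3 pigment UMIs had *Rbms1* at 101 and 129.9 CPM, and the 9 and 43 *Gja1* cells with 4 pigment UMIs had it at 145 and 193 CPM. The limits thus cut through gradients. Within the selected cells *Gja1* stood at 353 CPM in the control and 681 CPM in the DKO library, with medians of 3.49 and 6.45 UMIs per 10000 in a cell. These values follow in part from the limit in UMIs, which lets in cells with less *Gja1* per UMI where cells are deeper.

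The 3 markers that the rule did not use were higher in the selected cells than in *Gja1*-negative progenitors, and pigmented *Gja1* cells carried them too. *Gja1*-negative progenitors were kept cells with 0 *Gja1* UMIs, the same limits on pigment, *Fabp7* and *Atoh7*, and at least 4 UMIs of *Sfrp2* and *Ccnd1* together, which gave 3297 control and 2123 DKO cells. *Otx1* stood at 89.1 CPM (80.0 to 98.96) in control selected cells against 23.9 in progenitors, and at 118 (109 to 128) against 22.5 in the DKO library. *Rbms1* stood at 68.7 against 19.4 CPM in the control and at 109 against 20.01 in the DKO library. *Col9a1* stood at 506 against 164 CPM and at 406 against 66.0. On the log2 scale the differences were 1.90 and 2.39 for *Otx1*, 1.82 and 2.44 for *Rbms1* and 1.62 and 2.62 for *Col9a1* in control and DKO. In pigmented *Gja1* cells the 16 genes of the ciliary margin list summed to 3793 and 4508 CPM, against 2791 and 3009 in the selected cells and 947 and 811 in progenitors. The label thus held against progenitors, and these markers do not set the selected cells apart from pigmented *Gja1* cells. All 3 are descriptions, since *Gja1* of the same cells chose the groups.

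The marker genes were detected in more of the selected cells than of the progenitors at equal depth. After each cell was thinned to 2000 UMIs, *Otx1* had a UMI in 20.3% (15.5% to 25.8%) of control and 19.2% (15.9% to 23.0%) of DKO selected cells, and in 4.95% and 4.52% of the progenitors. Without thinning the shares in selected cells were 68.1% and 54.5%. In red blood cells the thinned shares were 0.247% and 0.905%. *Col9a1* had a UMI in 56.6% of thinned control and 43.3% of thinned DKO selected cells, against 1.81% and 2.87% of red blood cells. Of pigmented *Gja1* cells, 36 of 72 in the control and 58.9% in the DKO library had a *Col9a1* UMI after thinning. *Rbms1* was found in 27.8% and 44.5% of them and in 12.7% and 20.8% of the selected cells. Thinning left out 0 control and 11 DKO selected cells.

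Other genes of the ciliary margin were also higher in the selected cells. Of the 16 genes in the ciliary margin list, 9 other than *Gja1* met the limits on level in the comparison with progenitors in the control (at least 50 UMIs over both groups and at least 50 CPM in either), and 9 of 9 were higher, with a median log2 difference of 1.62 against -0.01 over all 3533 genes. In the DKO library 12 of 12 were higher, with a median of 2.18 against -0.02 over 3663 genes. At least 2-fold higher were 7 of the 9 and 9 of the 12, where the background over all genes was 2.24% in the control and 2.78% in the DKO library. All of these counts include the markers *Otx1*, *Rbms1* and *Col9a1* described above, each at least 2-fold higher in both libraries. The list was also written with earlier results of these data known, so its excess over the background is not independent evidence. *Wfdc1*, which encodes a secreted whey acidic protein, stood at 169 CPM against 45.4 in control progenitors and at 179 against 45.6 in the DKO library. *Zic1*, a zinc finger factor of the peripheral optic cup, stood at 444 against 164 and at 368 against 161 CPM. *Cdon*, a Hedgehog-binding receptor, stood at 249 against 122 and at 211 against 91.4 CPM.

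**Figure D2:**
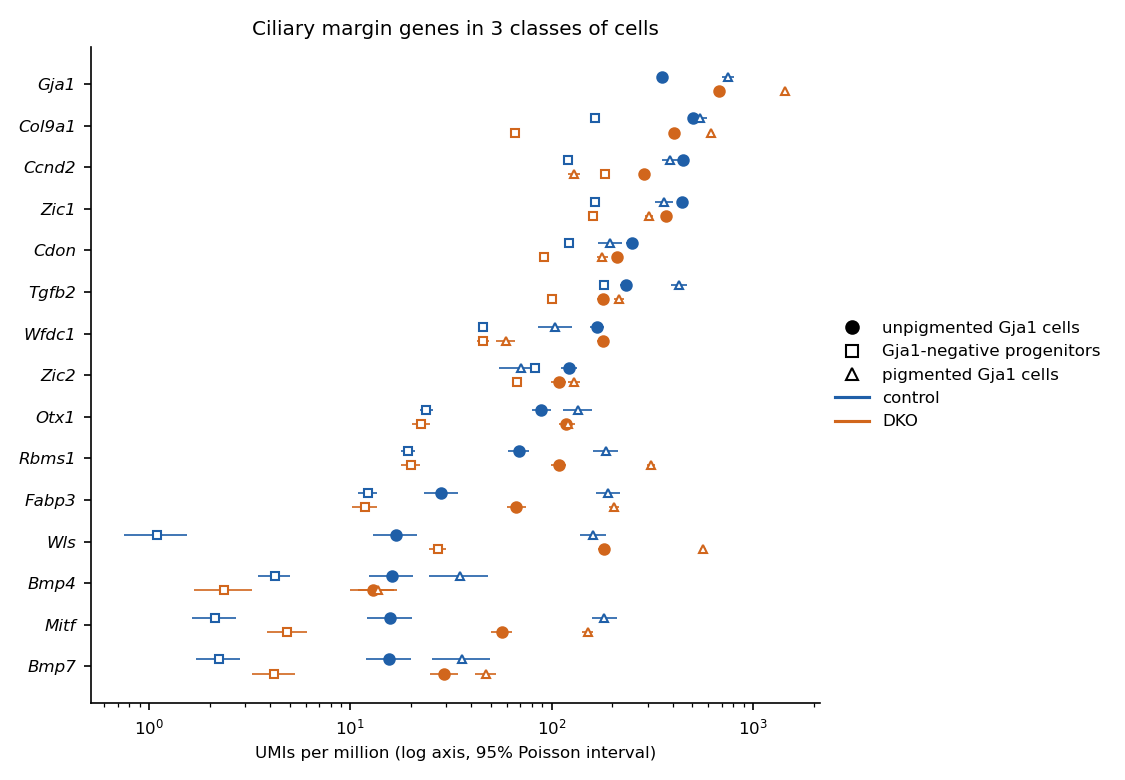
CPM (log axis) of ciliary margin genes in unpigmented *Gja1* cells (filled circles), *Gja1*-negative progenitors (squares) and pigmented *Gja1* cells (triangles), control in blue and DKO in orange, with 95% Poisson intervals. *Otx1*, *Col9a1*, *Zic1* and *Wfdc1* of the unpigmented *Gja1* cells lie to the right of the progenitors in both libraries, and *Wls* moves from 16.9 in control to 182 in DKO cells.

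Genes outside the list were also higher in the selected cells than in progenitors. Those named came from a ranking by this same comparison, and their levels in pigmented *Gja1* cells are not given here. *Ltbp1*, which encodes a matrix protein that binds latent TGF-beta, had the largest difference shared by both libraries, at 107 against 6.88 CPM in the control and 78.4 against 6.23 CPM in the DKO library. *Gas1*, a receptor for Hedgehog ligands, stood at 279 against 53.0 and at 197 against 38.0 CPM. *Cgn* encodes cingulin of tight junctions, and its log2 differences were 2.39 and 2.24. *Rhoj*, a small GTPase, had differences of 2.06 and 2.28, *Hbegf*, an EGF receptor ligand, 1.96 and 2.32, and *Stra6*, the receptor for retinol binding protein, 2.77 and 3.34. *Mecom*, *Nfib*, *Adamts9*, *Mfap4* and *Igfbp5* were also among the 15 genes with the highest difference shared by both libraries.

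Genes of naive retinal progenitors were mostly lower in the selected cells. *Sfrp2* and *Ccnd1* belong to this list of 14 genes and chose the progenitors, so they were left out of its counts. Of the others, 12 met the limits in the control, with 10 lower and a median log2 difference of -0.66, and 11 in the DKO library, with 9 lower and a median of -0.72. At least 2-fold lower were 5 and 4 of them, where the background was 1.70% and 1.91% of all genes. *Fgf15*, an FGF ligand of the neural retina, stood at 129 against 465 CPM in the control and 113 against 507 CPM in the DKO library. *Hes5*, a target of Notch signaling, stood at 12.5 against 92.8 and 22.1 against 71.3 CPM. *Kdr*, the VEGF receptor that is also made by retinal progenitors, stood at 4.34 against 75.4 and 10.8 against 58.8 CPM.

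The targeted genes were lower in the DKO library, *Six6* far more than *Six3*. *Six6* (chromosome 12 from 72939892 to 72944899) stood at 258 CPM (243 to 275) in control and 45.5 (39.8 to 51.7) in DKO selected cells, a log2 ratio of -2.51 (-2.72 to -2.30). *Six3* (chromosome 17 from 85613608 to 85629302) stood at 247 (232 to 263) and 205 (193 to 218) CPM, a ratio of -0.27 (-0.39 to -0.14). After thinning to 2000 UMIs, *Six3* had a UMI in 37.1% of control and 26.5% of DKO selected cells and *Six6* in 39.0% and 9.62%, against 4.78% and 5.43% (*Six3*) and 4.86% and 1.06% (*Six6*) of red blood cells. The counts are of transcript 3′ ends, so they give the transcript left and not which alleles a cell carried, and the counts used here hold no Cre feature.

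Between the genotypes most genes of the selected cells differed by less than 2-fold at the given limits. Of 3533 genes that met the limits on level, 50 were at least 2-fold higher in DKO cells (1.42%) and 9 at least 2-fold lower (0.255%), and the median log2 ratio was 0.02. The counts moved under thinning. They were 154 and 79 with the rule applied to cells thinned to 4000 UMIs, which left 61 control cells. In selected cells thinned to 2000 UMIs, 32 genes were lower. Both settings leave fewer UMIs, and smaller counts scatter more. Why the counts moved was not tested. *Wls* (chromosome 3 from 159839672 to 159938664) had the highest ratio. It encodes the carrier protein that Wnt ligands need for secretion. It had 66 UMIs in 27 of 251 control cells and 931 UMIs in 302 of 510 DKO cells. Its level was 16.9 CPM (13.0 to 21.4) in the control and 182 CPM (171 to 195) in the DKO library, a log2 ratio of 3.44 (3.08 to 3.82). Part of the control UMIs lay in cells with crystallins, and without such cells the control level was 7.19 CPM and the ratio 4.66. At 2000 UMIs per cell, 2.39% (0.882% to 5.13%) of the control and 31.1% (27.0% to 35.3%) of DKO selected cells had a *Wls* UMI, and 0.165% and 1.96% of red blood cells. With the rule applied to cells thinned to 4000 UMIs the levels were 65.6 and 346 CPM, a ratio of 2.40. In *Gja1*-negative progenitors *Wls* stood at 1.10 and 27.2 CPM and in pigmented *Gja1* cells at 161 and 564 CPM, so it was higher in the DKO library in each of the 3 classes.

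Genes of the ciliary margin list differed in both directions between the genotypes. Of its 12 tested genes without *Gja1*, 6 were higher and 6 lower in DKO cells, 5 with the interval above 0 and 5 with it below 0, and the median log2 ratio was -0.04. Over all 3533 genes 53.5% were higher and 46.5% lower, 25.2% had the interval above 0 and 18.2% below 0, and the median was 0.02. At least 2-fold higher were 3 of the 12 (1.42% of all genes) and at least 2-fold lower 0 (0.255%). The 3 higher genes were *Wls*, *Mitf* and *Fabp3*. The study reported each of these genes as higher in DKO cells on these same samples. Their excess over the background is therefore not independent evidence. *Mitf* (chromosome 6 from 97807052 to 98021349), the master factor of pigment cells, stood at 15.8 CPM (12.1 to 20.3) and 56.6 CPM (50.3 to 63.5), a log2 ratio of 1.84 (1.44 to 2.26). *Fabp3*, a fatty acid binding protein, stood at 28.3 and 66.8 CPM, a ratio of 1.24 (0.92 to 1.56), which was 0.79 with no pigment UMI allowed and 0.98 in selected cells thinned to 2000 UMIs. *Rbms1* and *Otx1* were higher by 0.66 (0.45 to 0.88) and 0.41 (0.22 to 0.60), though *Otx1* was at -0.14 with the rule applied to cells thinned to 4000 UMIs. *Ccnd2* was lower by 0.65 on the log2 scale, from 450.4 to 288 CPM, and *Col9a1*, *Zic1*, *Cdon* and *Tgfb2* had ratios between -0.37 and -0.24. *Wfdc1* had a ratio of 0.09 (-0.06 to 0.24).

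In the pigmented *Gja1* cells, which differ from the selected cells by the pigment limit, *Wls*, *Mitf*, *Fabp3* and *Samd5* stood higher than in the selected cells of the same library. In the control, *Wls* was higher in them by 3.26 on the log2 scale, *Mitf* by 3.53, *Fabp3* by 2.76 and *Samd5* by 1.60. In the DKO library the differences were 1.63, 1.42, 1.62 and 1.41. *Rbms1* was higher in pigmented cells by 1.44 and 1.52, whereas *Wfdc1* was lower in them (-0.69 and -1.60). *Trpm1*, *Dct*, *Pmel* and *Tyrp1* were limited by the rule, so their levels are no finding. In the selected cells *Dct* had 9 UMIs in the control and 70 in the DKO library, and *Trpm1* 164 and 438.

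**Figure D3:**
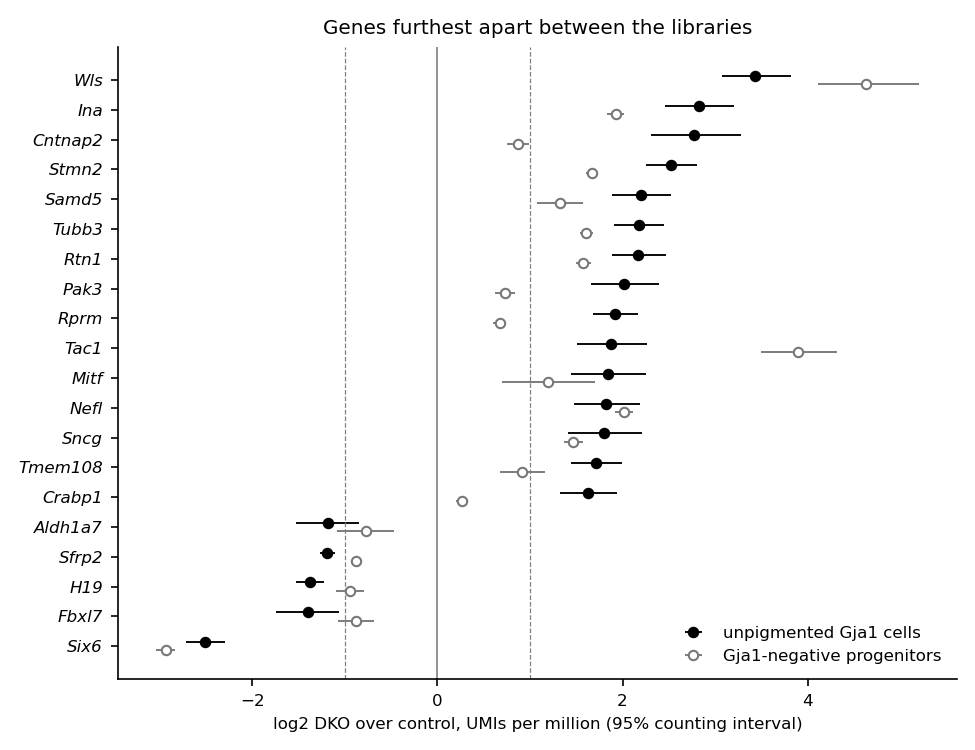
Log2 ratio of DKO over control of the 15 genes with the highest ratio in unpigmented *Gja1* cells and of the 5 ranked genes at least 2-fold lower, with 95% counting intervals, in unpigmented *Gja1* cells (black) and *Gja1*-negative progenitors (open); dashed lines mark a 2-fold difference. *Wls* lies at 3.44 and *Six6* at -2.51 in unpigmented *Gja1* cells, and *Cntnap2* and *Crabp1* lie further from 0 in these cells than in progenitors.

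*Samd5*, *Tac1* and *Tmem108* were among the 15 genes with the highest ratio as well. *Samd5* (chromosome 10 from 9622936 to 9675208) encodes a protein with a sterile alpha motif and had 99 UMIs in 62 control cells and 592 UMIs in 269 DKO cells, which gave a log2 ratio of 2.20 (1.89 to 2.52). *Tac1* (chromosome 6 from 7554879 to 7565834), the precursor of the neuropeptide substance P, had 71 UMIs in 38 control cells and 340 in 109 DKO cells, a ratio of 1.88 (1.505 to 2.27). With a *Gja1* limit of 5 UMIs the ratio of *Tac1* was 0.85. Both are in a list of 9 genes that the study chose on these samples, and their values are not independent evidence. Of that list 3 genes met the limits, and the third, *Fzd1*, a Wnt receptor, had a ratio of 0.70 (0.42 to 0.995). *Uncx*, a homeobox gene of the same list, had 0 control and 71 DKO UMIs in 33 cells, at least 18.2-fold higher against a floor of 3 UMIs over the control cells.

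A group of neuronal genes was higher in the DKO library, and these UMIs were concentrated in few cells. In the list of 11 genes of retinal neurons, 5 met the limits, and 5 of 5 were at least 2-fold higher (1.42% of all genes), with a median log2 ratio of 1.83. The same list was higher in DKO progenitors, where 9 of 9 tested genes were at least 2-fold higher (1.16% of all genes), with a median of 1.59. *Stmn2* and *Tubb3*, a microtubule regulator and a tubulin of neurons, stood at 32.2 and 35.5 CPM in the control and 185 and 160.1 CPM in the DKO library, ratios of 2.52 (2.25 to 2.80) and 2.17 (1.91 to 2.44). *Ina* (2.83), *Nefl* (1.83), *Sncg* (1.80) and *Rtn1* (2.17), which are genes of neurofilaments and neuronal membranes, were higher too. *Sncg* was at 0.73 with no pigment UMI allowed, and against DKO cells without *Six3* UMIs *Nefl* and *Sncg* were at 0.29 and 0.70. At least 10 UMIs of the list per 10000 were found in 3 of 251 selected cells of the control (1.20%) and in 40 of 510 of the DKO library (7.84%), and these DKO cells had a median of 12890 UMIs against 8112 in the others. Among progenitors 2.94% and 11.3% of cells reached this level. At 2000 UMIs per cell, *Stmn2* had a UMI in 2.39% of control and 8.02% of DKO selected cells and in 4.53% and 10.6% of red blood cells, so its share in the selected cells was not above background. The 3 control and 40 DKO selected cells with at least 10 UMIs of the list per 10000 were then left out. Without these neuron-rich cells *Stmn2* stood at 6.48 and 13.7 CPM, *Tubb3* at 11.4 and 27.8 and *Rtn1* at 17.4 and 22.4. The number of genes at least 2-fold higher was 38. *Nnat* and *Crabp1* had ratios of 1.34 and 1.63 with and 0.40 and 0.09 without the neuron-rich cells. *Uncx* lay mostly in the same cells, at 123 CPM in the 40 cells and 2.17 CPM in the other 470. The part of droplets with more than 1 cell was not tested; leaving out the highest doublet scores removed 16 control and 68 DKO selected cells and left 39 genes at least 2-fold higher.

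Other genes with high ratios had similar ones without the neuron-rich cells. *Cntnap2*, a neurexin family gene, had a log2 ratio of 2.77 in all cells and 2.70 without them, *Pak3*, a kinase of the actin cytoskeleton, 2.02 and 1.98, and *Rprm*, a regulator of the G2 phase, 1.92 and 1.90. *Nr2f2*, a nuclear receptor of the dorsal optic cup and the pigment epithelium, had ratios of 1.39 and 1.41, and *Ckb*, a creatine kinase, 1.37 and 1.36, and both were chosen after their values were seen.

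At the given limits, 9 of the 3533 tested genes were at least 2-fold lower in DKO cells. Apart from *Six6*, hemoglobin and crystallin genes, these were *Fbxl7*, *H19*, *Sfrp2* and *Aldh1a7*. *Sfrp2* (chromosome 3 from 83766321 to 83774316), a secreted Wnt antagonist of retinal progenitors, stood at 855 CPM (826 to 884) and 374 CPM (358 to 391.6), a log2 ratio of -1.19 (-1.27 to -1.11). *H19*, an imprinted noncoding RNA, stood at 277 and 107 CPM (-1.37), and *Fbxl7*, an F-box protein gene, at 55.9 and 21.2 CPM (-1.40). In *Gja1*-negative progenitors the ratios were -0.94 for *H19* and -0.88 for *Fbxl7*. The ratio of *Sfrp2* there was -0.88, but *Sfrp2* helped choose these cells, so that value is no finding. *Cdh6*, a cadherin, was at -0.93 (-1.12 to -0.73). *Aldh1a7* is nearly identical to *Aldh1a1* on the same chromosome, and reads could be split between them, so its ratio of -1.18 is uncertain. It was -0.85 without cells that held markers of other cell types.

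Of the Wnt pathway genes that met the limits on level, *Wls* and *Sfrp2* were those at least 2-fold apart, and larger ratios among the others rest on few UMIs. Of 14 Wnt receptor genes 6 met the limits, 3 higher and 3 lower, with 0 past 2-fold and a median of -0.01. Among 12 antagonists 3 met the limits, with *Sfrp1* at 0.10 (-0.06 to 0.26) and *Dkk3* at 0.25 (0.14 to 0.36) beside *Sfrp2*. Among the 9 genes of the Wnt response list only *Tcf7l1* met them, at -0.46 (-0.70 to -0.23). Summed over its 9 genes this list stood at 225 CPM in control and 227 CPM in DKO selected cells. The genes named next lie below the limits and were picked with their values in view. Below the limits, *Axin2*, a direct target of Wnt signaling, had 24 UMIs in 23 control cells and 101 UMIs in 89 DKO cells, a ratio of 1.69 (1.04 to 2.40). *Lef1*, a mediator of Wnt signaling, was at 0.70 (0.31 to 1.09), and *Lgr5*, a receptor for R-spondins, had 85 and 34 UMIs, a ratio of -1.70 (-2.32 to -1.11). The target gene *Sp5* and the ligand gene *Wnt3* had 15 and 12 UMIs in DKO cells and 0 in control cells, at least 3.84-fold and 3.07-fold higher against the floor of 3 UMIs. The only tested gene of the 12 for Wnt secretion and ligands was *Wls*.

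Of the tested FGF, BMP, Notch and IGF pathway genes, *Fst* and *Igf2r* were at least 2-fold higher and 0 at least 2-fold lower. Over all genes these shares were 1.42% and 0.255%. All 3 tested genes of FGF ligands and receptors were lower, *Fgf9* by 0.69 on the log2 scale, with the intervals below 0. Over all genes 46.5% were lower and 18.2% had the interval below 0. Among 8 tested BMP pathway genes the median was -0.10. *Fst*, an antagonist of activins and BMPs, was the exception at 38.3 and 80.5 CPM, a ratio of 1.07 (0.80 to 1.35), whereas it was at -0.56 in *Gja1*-negative progenitors. The ratio of *Fst* was 0.78 with a *Gja1* limit of 2 UMIs, 0.87 with no pigment UMI allowed, 0.97 without crystallin-rich cells and 2.48 with the rule applied to cells thinned to 4000 UMIs. *Bambi*, a BMP pseudoreceptor, was at -0.57 (-0.87 to -0.27). In the Notch list 2 genes met the limits, *Notch1* (0.34) and *Hes1* (-0.28). Of 5 tested IGF genes, *Igf2r*, the receptor that clears IGF2, was at 1.21 (0.99 to 1.44) and *Igfbp2* at -0.37. At equal depth *Igf2r* was under 2-fold, at 0.84 both in selected cells thinned to 2000 UMIs and with the rule applied to cells thinned to 4000 UMIs. Of the FGF response list, *Spred1* (-0.26) and *Dusp6* (0.13) met the limits.

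Retinoic acid genes differed in both directions. *Aldh1a1* makes retinoic acid in the dorsal and *Aldh1a3* in the ventral optic cup. *Aldh1a1* stood at 1715 CPM (1675 to 1757) in the control and 3374 CPM (3324 to 3425) in the DKO library, a log2 ratio of 0.98 (0.94 to 1.02), and *Aldh1a3* at 321 and 225 CPM, a ratio of -0.51 (-0.63 to -0.40). The ratio of *Aldh1a1* was 0.46 with the rule applied to cells thinned to 4000 UMIs. In the thinned data (2000 UMIs per cell), *Aldh1a1* was found without *Aldh1a3* in 49.0% (42.7% to 55.4%) of the control and in 68.7% (64.5% to 72.8%) of the DKO selected cells. The shares with *Aldh1a3* alone were 12.4% (8.55% to 17.1%) and 4.81% (3.11% to 7.07%), with both 19.9% and 17.6%, and with neither 18.7% and 8.82%. *Aldh1a1* had a UMI in 6.75% and 9.502% of thinned red blood cells. Of 7 dorsal genes 2 met the limits on level, *Aldh1a1* and *Efnb2*, a dorsal ephrin with a ratio of 0.92. *Tbx5*, a dorsal transcription factor, was below them, with 47 UMIs in 29 control cells and 170 in 109 DKO cells (1.47, 0.9992 to 1.97). Of 6 ventral genes 2 met the limits, *Aldh1a3* and the ephrin receptor gene *Ephb2*, which was higher in DKO cells at 0.24 (0.01 to 0.47). The ventral factor *Vax2* was below the limits, at -0.24 (-0.59 to 0.11). Of the 7 retinoic acid genes tested, 4 were higher and 3 lower, with a median of 0.50. At least 2-fold higher was 1 of the 7 (1.42% of all genes), *Crabp1*, which was under 2-fold without the neuron-rich cells described above. *Rdh10*, which oxidizes retinol, was at 0.50, and *Crabp2* and *Stra6* were at -0.72 and -0.56. *Cyp26a1*, which breaks retinoic acid down, was below the limits and not among the 7, with 103 and 25 UMIs, a ratio of -2.42 (-3.12 to -1.78).

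Cell cycle genes were slightly lower in DKO cells, each by less than 2-fold. Of 15 genes of S phase 14 met the limits and 14 were lower, 9 with the interval below 0, with a median log2 ratio of -0.23. Over all genes these shares were 46.5% and 18.2%. Of 12 tested genes of G2 and mitosis 10 were lower, 5 with the interval below 0, with a median of -0.13. In *Gja1*-negative progenitors the medians were 0.14 and 0.26. These progenitors were chosen in part by *Ccnd1*, a cell cycle gene. Its median was 10.5 UMIs per 10000 in control and 17.5 in DKO progenitors. How far the progenitor values in this paragraph follow from that choice was not tested. With 2000 UMIs kept per cell, 63.3% (57.1% to 69.3%) of the control and 48.7% (44.2% to 53.2%) of DKO selected cells had at least 2 UMIs of the S phase list, and 76.1% and 80.1% of the progenitors. At least 3 UMIs of the G2 and mitosis list were found in 55.4% (49.0% to 61.6%) and 45.9% (41.5% to 50.4%), and in 60.8% and 69.4% of the progenitors. In red blood cells the shares were 6.26% and 6.49% for S phase and 6.84% and 8.45% for G2 and mitosis, and without thinning the selected cells had 97.6% and 85.3%, and 87.6% and 71.2%. *Ccnd1* (chromosome 7 from 144929931 to 144939925), the D-type cyclin of retinal progenitors, stood at 554 and 408 CPM (-0.44), *Ccnd3* at -0.47 and the inhibitor *Cdkn1c* at -0.37 (-0.45 to -0.30), whereas *Cdkn1b* was at 0.12 (-0.12 to 0.36).

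Structural genes differed gene by gene. Of 14 tested actin regulators 10 were higher and 4 lower, with a median of 0.20. Over all genes 53.5% were higher and 46.5% lower, and 25.2% had the interval above 0 and 18.2% below 0. *Filip1* (chromosome 9 from 79815051 to 80012851), which encodes a filamin-binding protein, had 531 UMIs in 179 control cells and 1906 in 431 DKO cells, a ratio of 1.46 (1.32 to 1.60). *Vim*, the intermediate filament of neuroepithelium, stood at 1475 and 2136 CPM (0.53), *Myl9* was at 0.60, *Ezr* at 0.31 and *Myh9* at -0.42. Of 8 tested junction and cadherin genes, *Pcdh19* (0.91), *Cdh2* (0.68) and *Cdh11* (0.36) were higher, and *Cdh6*, *Cdh4* (-0.65) and *Pcdh17* (-0.40) lower, with the intervals away from 0. Of 9 tested matrix genes 4 were higher and 5 lower, 1 with the interval above 0 and 4 with it below 0. Among those below 0 were *Col4a1* (-0.48), *Col2a1* (-0.46) and *Col9a1* (-0.32), and *Sparc* was at 0.20 (0.11 to 0.28). Of 13 tested genes of the naive progenitor list, 11 were lower and 2 higher, 8 with the interval below 0 and 2 with it above 0. Its median was -0.27, with the targeted genes *Six3* and *Six6* included. *Dapl1* was at -0.61, and *Rax*, an eye field factor, was 1 of the 2 higher genes, at 0.54 (0.43 to 0.65).

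**Figure D4:**
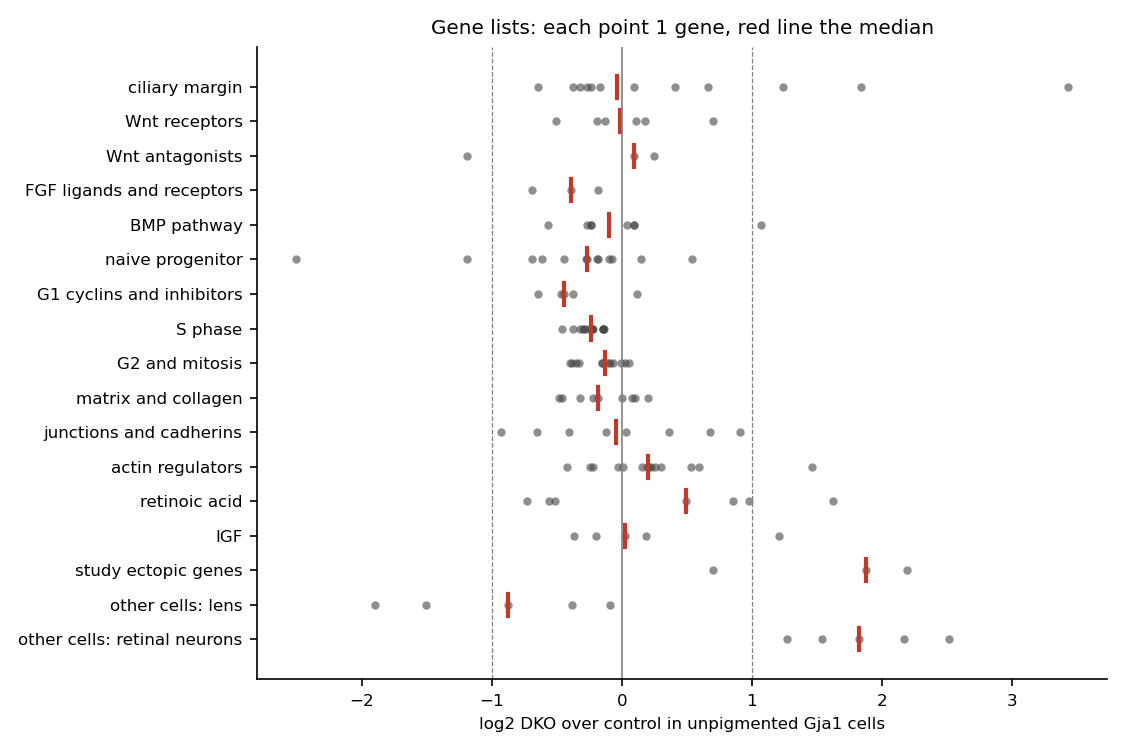
Log2 ratio of DKO over control in unpigmented *Gja1* cells for the tested genes of each list (1 point per gene, red line the median, genes of the rule left out, dashed lines at 2-fold). The median of the S phase list lies at -0.23 with each of its 14 genes below 0, that of the ciliary margin list at -0.04 with genes on both sides, and the neuron list at 1.83.

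The selected cells formed a gradient within each library. From cells with 3 to 4 *Gja1* UMIs to those with 10 or more, *Col9a1* stood at 411, 566 and 660.1 CPM in the control (129, 98 and 24 cells) and at 303, 369 and 611 in the DKO library (211, 199 and 100 cells). *Otx1* stood at 67.0, 101 and 129.7 CPM in the control, against 90.2, 106 and 178 in the DKO library. *Zic1* ran from 358 to 594 and from 317 to 457 CPM, and *Sfrp2* the other way, from 949.98 to 683 and from 481 to 293 CPM. In the DKO library *Wls* stood at 139, 194 and 229 CPM in these bins, whereas in the control it stood at 17.6, 19.6 and 5.81. The control values of *Wls* rest on 32, 31 and 3 UMIs, and the interval of the last is 1.20 to 17.0 CPM. *Samd5* stood higher with more *Gja1* in both libraries, at 16.5, 32.3 and 34.8 CPM (control) and 81.3, 115 and 168 CPM (DKO). *Mitf* did so too, at 11.0, 19.01 and 23.2 CPM and at 45.6, 59.5 and 68.5 CPM, where the control values rest on 20, 30 and 12 UMIs. Cells with more *Gja1* were also deeper, with medians of 12264, 14638 and 21290 UMIs in the control against 7631, 8064 and 11594 in the DKO library.

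**Figure D5:**
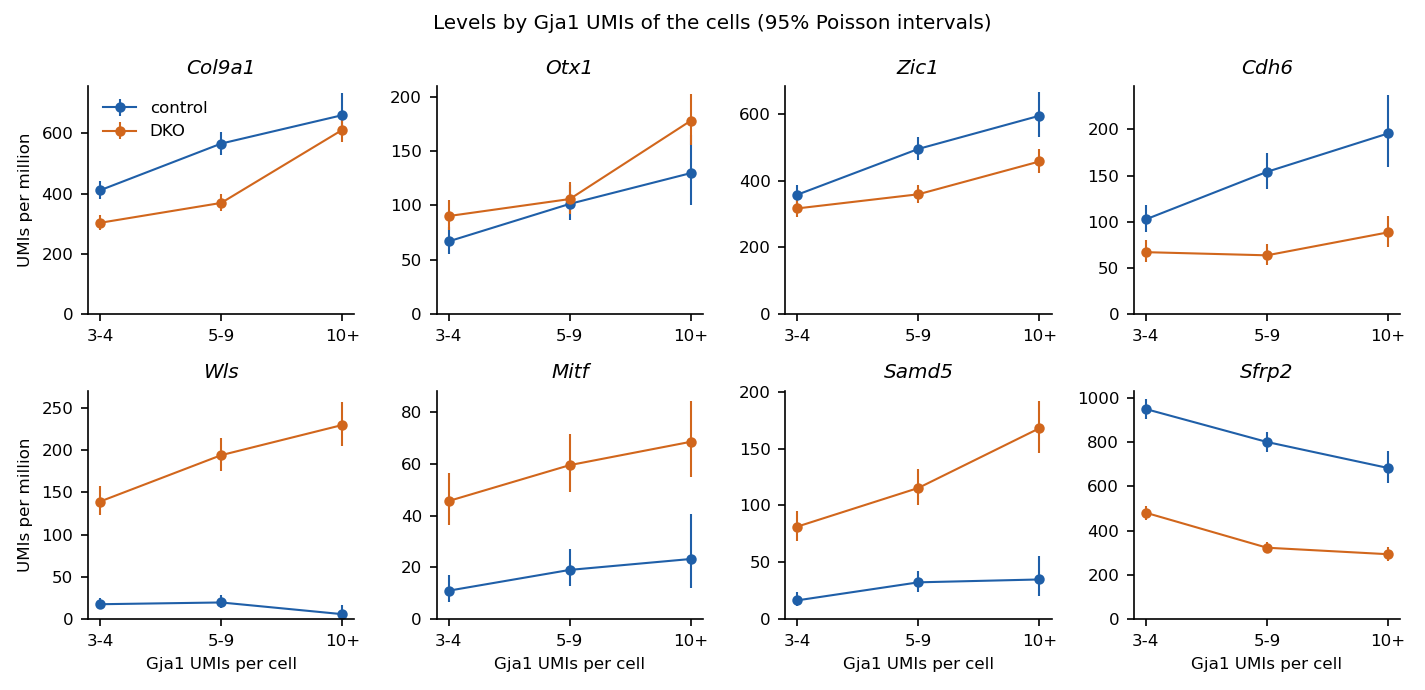
CPM of 8 genes in unpigmented *Gja1* cells with 3 to 4, 5 to 9 and 10 or more *Gja1* UMIs, control in blue and DKO in orange, with 95% Poisson intervals. *Col9a1*, *Otx1* and *Zic1* are higher and *Sfrp2* is lower toward the right in both libraries. *Wls* reaches 229 in the DKO library against 5.81 in the control, where it rests on 3 UMIs.

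DKO selected cells with and without a *Six3* UMI differed in several of these genes. The 213 DKO cells without one had *Wls* at 294 CPM (269 to 321), *Mitf* at 89.8, *Samd5* at 174 and *Filip1* at 509 CPM. The 297 DKO cells with at least 1 had them at 126 (114 to 139), 39.8, 86.8 and 305 CPM. *Aldh1a3* stood at 101 and 288 CPM, *Ccnd1* at 297 and 464, *Cdkn1c* at 353 and 643 and *H19* at 51.3 and 135 CPM. A *Six3* count of 0 also follows depth, since these cells had medians of 7117 and 9905 UMIs. In the control, 22 cells had no *Six3* UMI and 229 had at least 1 (medians of 8947 and 14699 UMIs). There *Wls* stood at 37.7 (15.2 to 77.7) and 15.8 CPM (12.0 to 20.4), *Filip1* at 124 and 136, *Ccnd1* at 512 and 556 and *Aldh1a3* at 313 and 322 CPM. In the 22 cells the value of *Wls* rests on 7 UMIs and that of *Filip1* on 23. Against all control cells, the DKO cells without *Six3* UMIs had 60 genes at least 2-fold higher and 38 lower, *Wls* had a log2 ratio of 4.12 and *Crabp1* one of -0.09.

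Markers of other cell types were also counted in the selected cells, and those of lens were higher in them than in progenitors. The 12 lens genes summed to 1159 CPM in the control and 526 in the DKO library, against 377 and 243 in progenitors and 280.5 and 299 in pigmented *Gja1* cells. The 5 lens genes that met the limits were all higher in selected cells than in progenitors, with median log2 differences of 1.29 and 1.30, and at least 2-fold higher were 3 control and 4 DKO ones (2.24% and 2.78% of all genes). Their part in the results was not tested beyond leaving out the cells that held them. *Foxe3*, the defining factor of the lens epithelium, had 0 UMIs in both, which allows up to 3 UMIs over all cells of a library. At least 10 UMIs of *Cryaa*, *Cryab* and *Crybb3* per 10000 were found in 16 control and 12 DKO cells (6.37% and 2.35%), and the 12 genes of periocular mesenchyme summed to 10.7 and 8.62 CPM, with 6 and 4 of them at 0. The 8 genes of surface ectoderm summed to 35.2 and 42.1 CPM, and *Krt5* had 35 UMIs in 1 DKO cell and 0 in the control. Endothelium and pericyte genes (8) summed to 6.64 and 18.6 CPM, macrophage genes (7) to 0.255 and 4.11, optic stalk genes (4) to 17.1 and 12.3 and hemoglobin genes (7) to 708 and 1077 CPM. Of the neurogenic genes, *Neurod1* had 1 UMI in the control and 105 UMIs in 47 DKO cells. Without the cells that had 3 or more UMIs of the lens, mesenchyme, endothelium, ectoderm and macrophage lists (crystallins not counted), 183 control and 421 DKO cells were left and *Wls* had a log2 ratio of 4.51.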

How the data were processed

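The authors mapped reads of 10x Genomics 3′ libraries (version 3 kit) to mm10 with Cell Ranger 3.1.0 and deposited UMI counts per gene and cell for called cells, without normalization; the counts were used as deposited. There was 1 library per genotype, so nothing was tested. UMIs were summed over the selected cells of each library (3916690 in the control, 5104024 in the DKO library) and given per 1000000 (CPM). Intervals are exact Poisson (levels), exact binomial (shares) and from the exact binomial split (ratios), and were tested on simulated data. Ratios are given as calls at 2-fold for genes with at least 50 UMIs over both groups and 50 CPM in either. Named genes are those of 31 lists and the 15 highest and lowest in 2 comparisons, without genes of the rule, mitochondrial, hemoglobin, crystallin and sex-linked genes; some are not reported here. List genes below the limits, such as *Axin2* and *Uncx*, were picked for the text with their values in view. The cells and lists were chosen with earlier results of these data known. Doublets were kept and left out in an alternative (Scrublet in scanpy 1.11.5). Python 3.11.15, numpy 2.4.6, scipy 1.17.1, pandas 2.3.3 and matplotlib 3.10.9 were used. Gene positions are from GENCODE of the same build. Cells of 1 library are no replicates.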

Additional observations from a re-analysis of the deposited data

How the results depend on the processing

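No paired analysis was possible because there was only 1 library per genotype. The share of unpigmented *Gja1* cells moved beyond its interval with the *Gja1* limit: at 2 UMIs it was 5.54% of control and 6.79% of DKO cells (ratio 1.23), at 5 UMIs 1.66% and 2.95% (ratio 1.77). Without pigment UMIs it was 1.92% and 2.005% (ratio 1.04). In cells thinned to 4000 UMIs the control share was 0.920% and the ratio 5.21. Without cells that held markers of other cell types the shares were 2.496% and 4.16%, and with no lower mitochondrial limit the DKO share was 4.58%. The number of genes at least 2-fold higher and lower was 154 and 79 in cells selected after thinning to 4000 UMIs, and 773 and 281 with at least 10 UMIs and no limit on level, where small counts scatter more. The number lower was 32 in selected cells thinned to 2000 UMIs and 38 with DKO cells without *Six3* UMIs. Directions reversed for the lens list without pigment UMIs (median 0.0104), *Otx1* in cells selected after thinning (-0.14), and the retinoic acid list and *Crabp1* with DKO cells without *Six3* UMIs (both -0.0875). Why these values moved was not tested. Leaving out neuron-rich or crystallin-rich cells was chosen after seeing the data. Of 798 values of 47 named genes under alternatives, 600 lay within the counting interval, and of 289 list medians 252. With 251 control cells, genes below 50 CPM rest on under 200 control UMIs.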
